A study of Sus scrofa with 95 samples.

Results

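The natriuretic peptides, the guanylins, their receptors and the protease corin were followed in 5 organs of infant swine. They were chosen by gene symbol, and all 10 symbols asked for (NPPA, NPPB, NPPC, CORIN, NPR1, NPR2, NPR3, GUCA2A, GUCA2B and GUCY2C) were found among the 35670 genes of the deposited table. There were 4 animals with cardiopulmonary bypass (CPB), deep hypothermic circulatory arrest of 75 min and 75 mg of linrodostat, an inhibitor of the tryptophan-degrading enzyme IDO1. They are called linrodostat animals here. Another 7 animals had bypass and the same arrest with no drug and are called CPB animals, and 8 anesthesia controls had neither. Both sexes were present in each group (2 males and 2 females, 4 and 3, and 4 and 4). Each of the 19 animals gave left ventricle, kidney cortex, terminal ileum, right lower lobe of lung and liver, so that there were 95 poly(A) RNA libraries, and no group had the drug alone or bypass without arrest. Per the labels, kidney and ileum were taken before euthanasia and heart, lung and liver after it, and all hearts carry another batch label than the other organs, so that heart and batch cannot be told apart in a comparison across organs.

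Atrial natriuretic peptide (NPPA) and B-type natriuretic peptide (NPPB) are heart hormones made as precursors, which corin and furin cut to the active form. They act through NPR1, a membrane receptor that makes cyclic GMP, while C-type natriuretic peptide (NPPC) acts through NPR2, and NPR3 binds and removes all of them. Guanylin (GUCA2A) and uroguanylin (GUCA2B) are gut peptides that act through GUCY2C, another cyclic GMP forming receptor, to move salt and water into the gut lumen, and in rodents uroguanylin also raises sodium excretion by the kidney.

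Heart libraries held between 20 and 27.2 times 1e6 counts, and those of the other organs between 25.7 and 53.6 times 1e6. Levels below are counts per 1e6 counts scaled by TMM within an organ (CPM), as mean ± SD over 4 linrodostat, 7 CPB and 8 control libraries. Values after ± beside a log2 fold change are standard errors. A gene is said to have risen or fallen only where the Benjamini-Hochberg adjusted p of edgeR's quasi-likelihood test, over all genes tested in the organ, was under 0.05. CPB against control and linrodostat against control share the same control libraries. In bulk tissue, fewer cells of a type and less RNA per cell cannot be told apart. Marker genes set apart the labelled organ in heart, lung and liver, with limits in kidney and ileum. Summed ventricular muscle markers were at least 55000 CPM in every heart and at most 338 CPM elsewhere, and summed alveolar type 2 markers were at least 5080 CPM in lung and at most 103 CPM elsewhere. Summed hepatocyte markers were at least 49100 CPM in liver and at most 2540 CPM elsewhere. The proximal tubule list did not set kidney apart, at 2050 CPM or more there and up to 5540 CPM elsewhere. The distal tubule and collecting duct list did, at 4080 CPM or more in kidney and at most 59.9 CPM elsewhere. The ileum of CPB animal 19 had 13.9 CPM of the enterocyte genes FABP2, FABP6 and SI together. The other 18 ilea had 2580 to 9890 CPM. VIL1, also on the enterocyte list, was at 436 CPM in that of CPB animal 19 and at 376 to 1650 CPM in the other CPB ilea. In the ileum of linrodostat animal 24, VIL1 was at 60 CPM, below every other ileum, while FABP2, FABP6 and SI summed to 2620 CPM.

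NPPA and NPPB lie side by side on chromosome 6 of the Sscrofa11.1 assembly, NPPA at chr6:71919557-71921345 and NPPB at chr6:71930374-71931843, with 9028 bases and no other gene start between them. GUCA2A at chr6:169146336-169148284 and GUCA2B at chr6:169152172-169154557 are also neighbours, 3887 bases apart. CORIN is at chr8:37530812-37811226, NPR1 at chr4:95957220-95974253, NPR2 at chr1:236508994-236529172, NPR3 at chr16:18841540-18929813, NPPC at chr15:132504669-132509688 and GUCY2C at chr5:57780484-57902475. All positions are those of the RefSeq gene table.

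In control animals each of the 9 genes with enough counts differed between organs (F test over 40 control libraries, 95.9% of all genes called), and NPPC was too low to test. Between 58.9 and 72.1% of genes were called in each of the 10 pairs of organs. Levels in this comparison were scaled jointly over the organs. NPPA averaged 127 ± 81.3 CPM and NPPB 23.4 ± 15.3 CPM in control heart, against 0 to 0.0387 CPM of either in the other 4 organs. CORIN had 76.2 ± 27.2 CPM in heart, 27.7 ± 9.38 CPM in liver, 1.19 ± 0.732 CPM in kidney, 0.15 ± 0.105 CPM in lung and 0.0273 ± 0.0332 CPM in ileum. The order of CORIN from heart down to ileum had a called difference at each step. NPR1, the receptor of NPPA and NPPB, was highest in lung (71.3 ± 15.3 CPM), followed by kidney (41.8 ± 7.02 CPM), heart (33.6 ± 11.5 CPM), liver (21.8 ± 8.82 CPM) and ileum (9.56 ± 9.4 CPM). Its kidney and heart levels did not differ beyond their spread (adjusted p 0.383), nor did heart and liver (0.0687). NPR2 ranged from 11.3 ± 6.07 CPM in ileum to 28.9 ± 7.19 CPM in lung, with heart (26.8 ± 3.12 CPM) not told apart from lung (adjusted p 0.728), nor kidney (19.8 ± 6.32 CPM) from liver (17.4 ± 9.25 CPM, adjusted p 0.558). The clearance receptor NPR3 was highest in liver (51.8 ± 21 CPM) and heart (49.1 ± 13.7 CPM), which were not told apart (adjusted p 0.82), and lowest in ileum (2.87 ± 1.36 CPM). Lung (21.3 ± 12 CPM) and kidney (15.5 ± 4.24 CPM) lay between them and were not told apart either (adjusted p 0.172).

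The guanylin genes and their receptor had another order. GUCA2A averaged 73.7 ± 38.3 CPM in control ileum, 1.51 ± 1.18 CPM in liver, 0.094 ± 0.0684 CPM in kidney, 0.0466 ± 0.132 CPM in lung and 0 in heart. GUCA2B averaged 32.6 ± 16.2 CPM in ileum, 0.592 ± 0.717 CPM in kidney and 0.567 ± 0.461 CPM in liver, the last pair not told apart (adjusted p 0.918). Both were at 0 counts in all 19 hearts, where 0 counts allow up to 0.0939 to 0.175 CPM, counting error only. GUCY2C was highest in ileum (29.5 ± 16.6 CPM) and was found in every organ, at 7.85 ± 1.81 CPM in kidney, 4.75 ± 1.37 CPM in liver, 2.19 ± 1.2 CPM in heart and 1.87 ± 0.466 CPM in lung, the last pair not told apart (adjusted p 0.498).

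**Figure D1:**
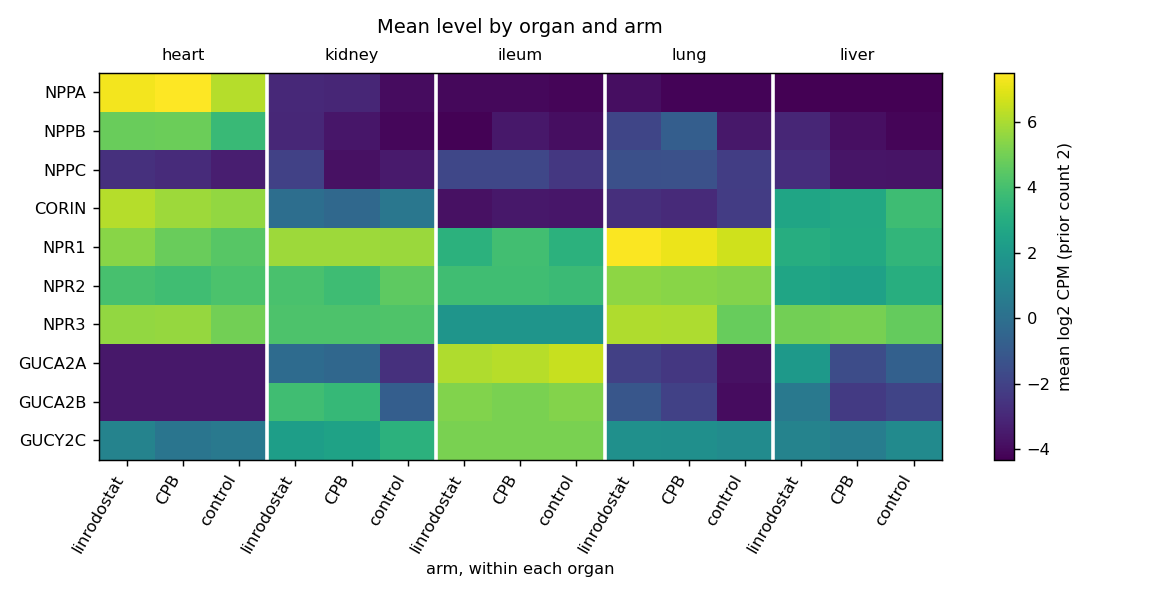
Mean log2 CPM (prior count 2, scaled within each organ) of the 10 genes, one row per gene and one column per organ and arm, with linrodostat left of CPB and control in each organ. NPPA and NPPB are bright in heart only, GUCA2A and GUCA2B in ileum, and the GUCA2B row is also light in linrodostat and CPB kidney.

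In the left ventricle, NPPA and NPPB had higher means in both bypass arms than in controls, and neither passed the test. NPPA was 58.7, 93.9, 223 and 502 CPM in the 4 linrodostat hearts, between 67.5 and 357 CPM (median 213) in CPB hearts and between 37.5 and 198 CPM (median 61.1) in control hearts. The arms overlapped, with 4 of 7 CPB hearts above every control. The log2 fold change was 1.30 ± 0.48 for CPB against control (adjusted p 0.0865), 1.35 ± 0.55 for linrodostat against control (adjusted p 0.227) and 0.05 for linrodostat against CPB, with a 95% interval of -1.17 to 1.27. NPPB was 5.21, 8.75, 76.3 and 157 CPM in linrodostat hearts, 7.78 to 93.7 CPM (median 26.4) in CPB hearts and 4.13 to 34.9 CPM (median 13.6) in control hearts. Both treated arms held hearts inside the control range and hearts well above it. Its log2 fold change was 1.48 ± 0.71 for CPB against control (adjusted p 0.186), 1.97 ± 0.80 for linrodostat against control (adjusted p 0.228) and 0.49 (interval -1.28 to 2.26) for linrodostat against CPB. Of all genes tested in heart, 11.9% were called in CPB against control, 2.04% in linrodostat against control and 0% in linrodostat against CPB, where 901 of 14890 had an unadjusted p under 0.05. Of the 10 genes, 7 were tested in heart and 0 were called in any of the 3 comparisons.

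The call on NPPA depended on single libraries. It passed in CPB against control without CPB animal 9 (1.45, adjusted p 0.0462), without control animal 14 (1.59, adjusted p 0.042), and without the pair of hearts described next (1.46 ± 0.43, adjusted p 0.0414). MYH6, the alpha myosin heavy chain on the atrial marker list, stood at 11500 CPM in the heart of CPB animal 25 and 5700 CPM in that of linrodostat animal 24. It made up 99.6 and 98.5% of the summed atrial list there, which was 122 to 2520 CPM in the 17 other hearts, while the atrial markers SLN and BMP10 were at most 0.493 CPM in every heart. The summed list had medians of 1660, 1630 and 503 CPM in linrodostat, CPB and control hearts. MYL4, the atrial myosin light chain on that list, was 6.53 to 49.1 CPM in linrodostat hearts, 20 to 96.7 CPM in CPB hearts and 5.79 to 41.3 CPM in control hearts. It was above every control in CPB animals 2, 11, 19 and 21 (78.4, 95.3, 68.3 and 96.7 CPM), of which 2, 11 and 21 had the highest NPPA of the CPB arm. It was at 20 and 20.2 CPM in CPB animals 9 and 25, which had the lowest. CPB animals 6 and 19 had 36 and 68.3 CPM of MYL4 beside 213 and 168 CPM of NPPA. Linrodostat animals 12, 18, 20 and 24 had 6.53, 27.9, 19.4 and 49.1 CPM of MYL4 beside 93.9, 58.7, 223 and 502 CPM of NPPA. The MYH6-rich hearts were unlike each other in the peptides: linrodostat animal 24 had the highest NPPA and NPPB of all, and CPB animal 25 had 81.4 CPM of NPPA and 10.5 CPM of NPPB. With the level of the atrial list as a covariate, chosen after these values were seen, CPB against control gave 1.21 for NPPA (adjusted p 0.154) and 1.25 for NPPB (adjusted p 0.343). That level is mostly MYH6, and the part of MYL4 in the NPPA values was not tested.

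NPPA and NPPB went together across the 19 hearts, with a Pearson r of 0.732 and a Spearman rho of 0.718 on log2 CPM (permutation test with 100000 resamples, adjusted p 0.00072 and 0.00084 over 4 relations). Without the 2 hearts farthest in NPPA r was 0.687, and it was 0.397 within the 7 CPB hearts and 0.651 within the 8 controls. The ratio of NPPA to NPPB CPM, compared only between libraries, was 2.92 to 11.3 in linrodostat, 2.27 to 36.1 in CPB and 2.09 to 11.7 in control hearts. At the upper end was CPB animal 11, with 281 CPM of NPPA beside 7.78 CPM of NPPB.

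CORIN, the protease that activates the NPPA precursor, was 30.3, 95.1, 98.5 and 99.6 CPM in linrodostat hearts, 14.9 to 80.4 CPM (median 67.1) in CPB hearts and 25.2 to 78.7 CPM (median 50.4) in controls. In 3 of 4 linrodostat hearts it was above every other heart. The lowest linrodostat and the lowest CPB value belonged to animals 24 and 25, the MYH6-rich hearts. The log2 fold change was 0.67 ± 0.35 for linrodostat against control (adjusted p 0.38) and 0.27 ± 0.31 for CPB against control (adjusted p 0.606). NPR1 was 22.4, 34.9, 36.7 and 108 CPM in linrodostat hearts, 11.8 to 50.5 CPM in CPB hearts and 17 to 38.4 CPM in controls. The heart of linrodostat animal 12 stood far above the rest. NPR1 had a log2 fold change of 1.17 ± 0.36 for linrodostat against control (adjusted p 0.104, and 0.0273 with DESeq2) and 0.73 (interval -0.06 to 1.52) for linrodostat against CPB. Summed endothelial markers were 469 to 1000 CPM in linrodostat, 371 to 559 CPM in CPB and 381 to 687 CPM in control hearts, and their part in the NPR1 values was not tested. NPR3 averaged 57 ± 32.7 CPM in linrodostat, 62.4 ± 43.5 CPM in CPB and 33 ± 9.34 CPM in control hearts (CPB against control 0.92 ± 0.40, adjusted p 0.139). NPR2 averaged 16.6 ± 1.46, 15 ± 3.33 and 18 ± 2.16 CPM in linrodostat, CPB and control hearts. The SD of NPPA, NPPB and NPR3 was wider in both bypass arms than in controls, a difference that was not tested.

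**Figure D2:**
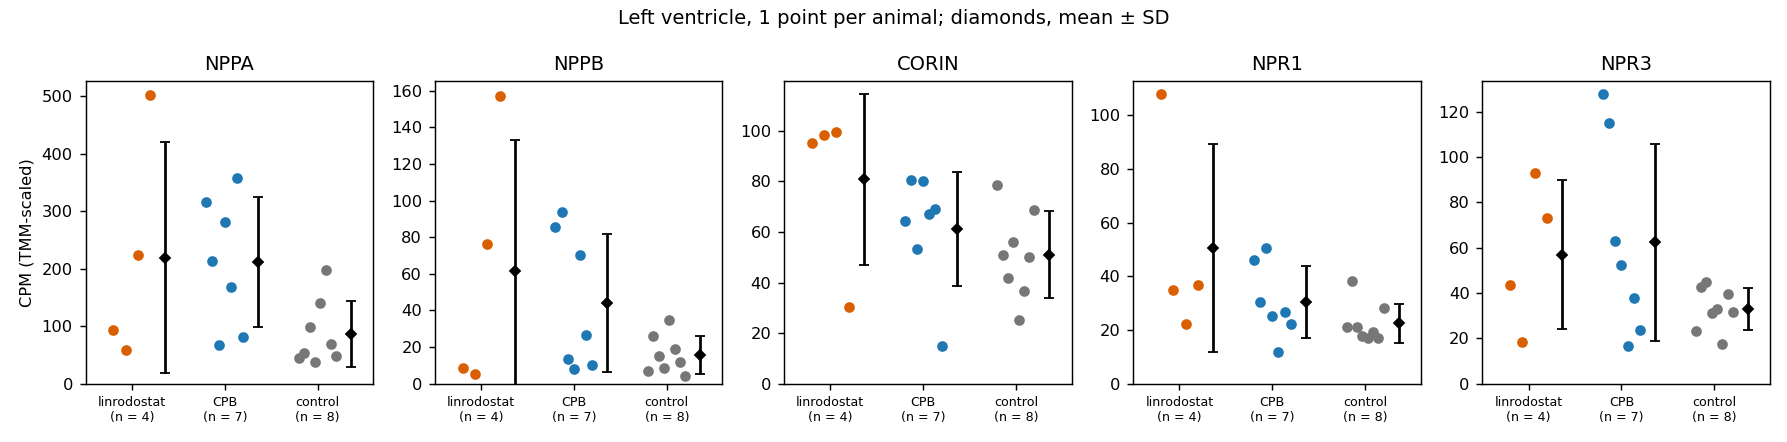
CPM in the left ventricle for NPPA, NPPB, CORIN, NPR1 and NPR3 on axes from 0, one point per animal with linrodostat, CPB and control from left to right, and a diamond with a bar for the mean ± SD (a bar that would pass below 0 is cut at the axis). The highest linrodostat hearts reach 502 CPM of NPPA and 157 CPM of NPPB, while others in the same arm stay within the control range.

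Some genes around the peptides passed the test in heart where the peptides did not. In CPB against control, 6.39% of all genes rose and 5.53% fell. Of 7 tested genes for peptide processing and clearance, 1 rose in CPB against control (median log2 fold change 0.08, against -0.02 over all genes): FURIN, which cuts the NPPB precursor, was 139 ± 10.6 CPM in linrodostat, 170 ± 43.6 CPM in CPB and 86.6 ± 18.6 CPM in control hearts (0.97 ± 0.16 for CPB against control, adjusted p 0.000559). Of 8 tested targets of the cyclic GMP dependent kinases 3 rose and 0 fell (median 0.28). TRPC6, a calcium-permeable cation channel, was 3.72 ± 1.3 CPM in linrodostat, 3.88 ± 1.12 CPM in CPB and 1.36 ± 0.345 CPM in control hearts, and rose in CPB (1.51 ± 0.24, adjusted p 0.000466) and in linrodostat against control (1.45 ± 0.27, adjusted p 0.00908). PLN, the brake of the sarcoplasmic calcium pump, was 641 ± 198 CPM in linrodostat, 847 ± 234 CPM in CPB and 453 ± 127 CPM in control hearts (0.90 ± 0.19 in CPB against control, adjusted p 0.00344). VASP, an actin regulator, had 0.60 ± 0.18 (adjusted p 0.0293), a call lost in 9 alternatives. PDE3A, a phosphodiesterase that cyclic GMP inhibits, was the 1 of 8 kinase and phosphodiesterase genes to rise (0.57 ± 0.12, adjusted p 0.00473), and SRF, a transcription factor, the 1 of 10 known to act on NPPA and NPPB (0.93 ± 0.21, adjusted p 0.0072). None of 5 tested nitric oxide synthase and soluble guanylate cyclase genes was called.

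In kidney cortex the guanylin genes rose and their receptor fell. GUCA2B was 9.93, 12.3, 15.7 and 22.5 CPM in the 4 linrodostat kidneys, 7.88 to 18 CPM (median 12.2) in CPB kidneys and 0.255 to 2.89 CPM (median 0.405) in control kidneys. Both bypass arms lay above every control and overlapped each other. How many of all genes set the arms apart in this way was not counted. Apart from control animal 26 at 2.89 CPM no control was above 0.713 CPM. The mean was 20.4 times the control mean in linrodostat kidneys and 16.7 times in CPB kidneys (log2 fold change 4.35 ± 0.49, adjusted p 1.33e-05, and 4.07 ± 0.45, adjusted p 1.02e-05). By p it was number 39 among 17653 genes in CPB against control. Linrodostat against CPB gave 0.29, with an interval of -0.72 to 1.29. GUCA2A was lower but showed the same order of arms. It was 0.392 to 1.92 CPM in linrodostat, 0.254 to 1.9 CPM in CPB and 0 to 0.238 CPM in control kidneys. Again both bypass arms lay above every control and overlapped each other. It rested on 111, 183 and 36 counts in all, with at most 9 in any control, so that it entered the test through the bypass arms, where it was high. Its log2 fold change was 2.99 ± 0.62 in linrodostat against control (adjusted p 0.00236), 2.80 ± 0.56 in CPB against control (adjusted p 0.00206) and 0.18 (interval -1.10 to 1.46) in linrodostat against CPB. The call in linrodostat against control was lost with the level of FABP2, FABP6 and SI as a covariate (2.24, adjusted p 0.0838). As a percent of its mean in ileum, GUCA2B reached 33.6 in linrodostat, 27.5 in CPB and 1.64 in control kidneys, and GUCA2A reached 1.07, 0.94 and 0.133.

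GUCY2C, the receptor of both peptides, was 3.17, 5.03, 5.58 and 6.02 CPM in linrodostat kidneys, 3.85 to 8.12 CPM (median 5.68) in CPB kidneys and 5.89 to 12.9 CPM (median 9.79) in controls. Only control animal 15 fell within the range of the bypass arms. GUCY2C fell by 0.99 ± 0.23 on the log2 scale in linrodostat against control (adjusted p 0.00493) and by 0.80 ± 0.19 in CPB against control (adjusted p 0.00591). Its linrodostat call was lost with the level of FABP2, FABP6 and SI as a covariate (-0.78, adjusted p 0.116). NPR2, the receptor of C-type natriuretic peptide, was 15.9 to 19.6 CPM in linrodostat kidneys, 11 to 16.5 CPM (median 15.3) in CPB kidneys and 13 to 35.7 CPM (median 26.1) in controls. Controls fell into 6 kidneys at 23.8 CPM or more and animals 4 and 13 at 13 and 13.6 CPM. NPR2 fell in CPB against control (-0.81 ± 0.19, adjusted p 0.0055), and linrodostat against control gave -0.53 ± 0.22 (adjusted p 0.101), which passed without control animal 4 (0.0297) or 13 (0.0291). Of the 7 genes tested in kidney, 2 rose and 2 fell in CPB against control, where 11.3% of all genes rose and 9.86% fell (GUCA2A, 1 of the 2, being tested only through the bypass arms), and 2 rose and 1 fell in linrodostat against control, where 11.7% rose and 8.27% fell. None was called in linrodostat against CPB, nor was any other gene (0%, with 822 of 17653 at an unadjusted p under 0.05). NPR1 (55.7 ± 12.5, 56.6 ± 17.2 and 52.8 ± 9.52 CPM in linrodostat, CPB and control) and NPR3 (18.3 ± 3.37, 18.7 ± 3.98 and 19.6 ± 5.36 CPM) had log2 fold changes of 0.10 and -0.07 in CPB against control, with intervals of -0.25 to 0.45 and -0.42 to 0.29.

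**Figure D3:**
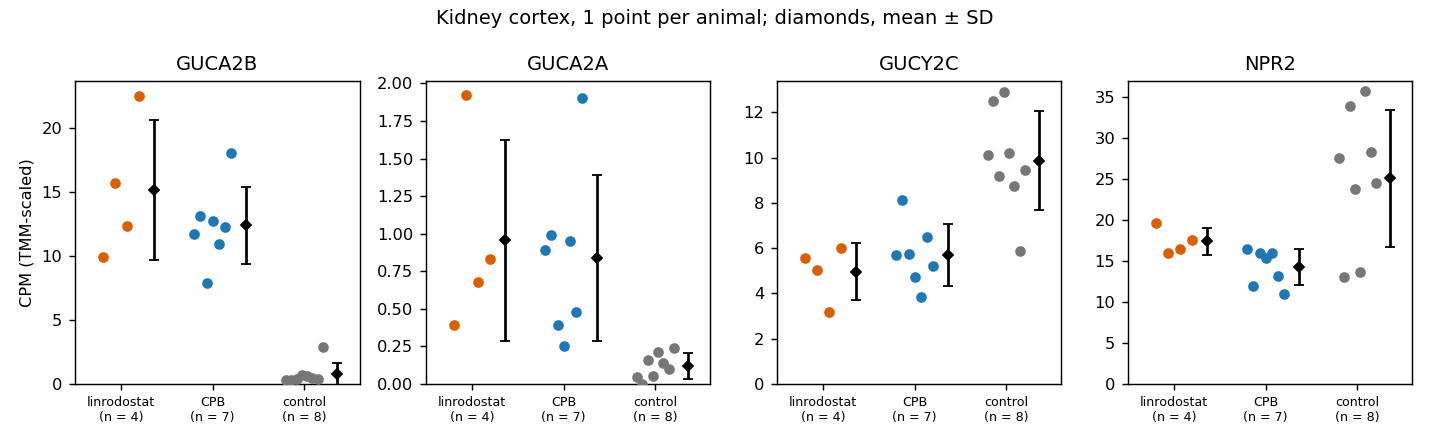
CPM in kidney cortex for GUCA2B, GUCA2A, GUCY2C and NPR2 on axes from 0, one point per animal with linrodostat, CPB and control from left to right, and a diamond with a bar for the mean ± SD (cut at 0). All bypass kidneys lie above all control kidneys for GUCA2B and GUCA2A, and most lie below them for GUCY2C.

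Markers of other cells were read beside these values. The gut genes FABP2, FABP6 and SI summed to at most 0.245 CPM in every kidney, and summed distal tubule and collecting duct markers had medians of 7850, 6890 and 7870 CPM in linrodostat, CPB and control kidneys, with overlapping ranges. The 5-gene enterocyte list as a whole was 94.8 to 186 CPM in linrodostat, 92.6 to 257 CPM in CPB and 31 to 121 CPM in control kidneys. APOA4, an apolipoprotein on that list, averaged 60.7, 50.6 and 3.09 CPM there, and VIL1, which tubules also express, 73.7, 82.1 and 70.6 CPM. Smooth muscle markers had medians of 823, 451 and 869 CPM and fibroblast markers of 1760, 1380 and 2680 CPM in linrodostat, CPB and control kidneys, and their part in the NPR2 values was not tested. The ratio of GUCA2A to GUCA2B CPM was 0.0632, 0.0677 and 0.16 in linrodostat, CPB and control kidneys, and 1.74 to 2.26 in the arms of the ileum.

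NPPA was almost absent from kidney, and where it was found ventricular muscle transcripts were found too. It was at 1.47 CPM in the kidney of linrodostat animal 12, at 0.785, 0.205 and 0.119 CPM in those of CPB animals 9, 6 and 21, at 0.127 CPM in that of control animal 4 and at 0 in the other 14. The summed ventricular muscle list was 338, 158, 151, 31.4 and 40.3 CPM in these 5 kidneys and 2.47 to 16.7 CPM in the 14 without NPPA. NPPC was at 0.098 to 0.491 CPM in linrodostat kidneys, 0 to 0.0605 CPM in CPB kidneys and 0 to 0.221 CPM in controls, with 25, 4 and 17 counts in all, too few to be tested.

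In kidney, 11.3% of all genes rose and 9.86% fell in CPB against control. Among genes of guanylin-regulated ion transport, 1 of 7 rose and 1 fell in this comparison (median -0.21, against -0.03 over all genes). SLC9A3, the sodium proton exchanger of the proximal tubule that guanylin signaling inhibits in the gut, was 32.6 ± 12.4 CPM in linrodostat, 24.9 ± 6.19 CPM in CPB and 80.2 ± 39.4 CPM in control kidneys. It fell by 1.69 ± 0.26 on the log2 scale in CPB (adjusted p 0.000242) and by 1.30 ± 0.31 in linrodostat (adjusted p 0.00689, lost in 1 alternative) against control, and no bypass kidney reached the lowest control at 53.6 CPM. NHERF4, a scaffold protein, fell in linrodostat against control (-1.17 ± 0.34, adjusted p 0.0211). That call was lost in 4 alternatives, among them leaving out linrodostat animal 12, 18 or 20 (adjusted p 0.0598 to 0.0829). The anion exchanger SLC26A6 rose in CPB (0.81 ± 0.24, adjusted p 0.0241, lost in 2 alternatives). Of 9 processing genes 2 rose and 1 fell in CPB. SPINT1, an inhibitor of membrane serine proteases, was 185 ± 25.4 CPM in linrodostat, 190 ± 30.6 CPM in CPB and 111 ± 26 CPM in control kidneys (0.78 ± 0.14 in CPB, adjusted p 0.000638). FURIN had 0.36 ± 0.12 (adjusted p 0.0348, lost in 9 alternatives), and PCSK6, which activates corin in mice, fell (-0.96 ± 0.28, adjusted p 0.0213, lost in 1 alternative). NOS1, the neuronal nitric oxide synthase, was the 1 of 6 genes of its list to fall (-1.12 ± 0.32, adjusted p 0.0195). HNF4A, a transcription factor of gut, liver and tubule epithelium, rose in CPB (0.69 ± 0.23, adjusted p 0.0369, lost in 10 alternatives). No renal sodium channel subunit of 3 and none of 9 cyclic GMP kinase and phosphodiesterase genes was called.

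The CPB effect on GUCA2B and GUCA2A differed between organs. In the fit over all 95 libraries the F test of the organ by CPB term gave an adjusted p of 0.000234 for GUCA2B and 0.00836 for GUCA2A, and 12.9% of 20321 genes were called. With the animal as a replicate block the values were 0.000113 and 0.0109. GUCA2A was not called with limma-voom, with or without a shared correlation per animal (1 of the 10 genes called each time, GUCA2B), nor without CPB animal 25, and its adjusted p reached 0.139 over 22 settings, against 0.00885 at most for GUCA2B. Kidney exceeded liver by 4.79 ± 0.98 on the log2 scale for GUCA2B (adjusted p 0.00138) and by 4.04 ± 1.01 for GUCA2A (adjusted p 0.0111), where 3.52% of genes were called. Liver was below lung by -5.16 ± 1.22 for GUCA2B (adjusted p 0.00799) and -3.78 ± 1.08 for GUCA2A (adjusted p 0.0328), where 3.91% were called. The highest CPB lung values of both genes were those of animals 19 and 25, whose lungs held 59.9 and 51.9 CPM of kidney tubule markers. Per 100 CPM of these markers there were 2.59 and 3.93 CPM of GUCA2B, against 0.115 to 0.25 CPM in bypass kidneys. With these markers as a covariate GUCA2B had 1.25 in lung (adjusted p 0.622), and GUCA2A was not called in lung (adjusted p 0.257). The part of kidney transcripts in the organ difference was not tested. The GUCA2B effect of ileum was below that of kidney (-3.89 ± 0.85, adjusted p 0.00404, with 2.49% of genes called). The other 8 genes had adjusted p from 0.0984 (NPR3) to 0.857 (NPPA).

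In ileum, the main site of both guanylins, no difference was called. GUCA2A averaged 78.9 ± 53.6 CPM in linrodostat, 84 ± 45.3 CPM in CPB and 98.5 ± 48.6 CPM in control ilea. GUCA2B averaged 45.3 ± 30.7, 46.5 ± 43.5 and 43.5 ± 20.4 CPM, and GUCY2C had 43.7 ± 36.8 CPM in CPB and 39.3 ± 21.1 CPM in control ilea. The log2 fold changes of CPB against control were -0.23 (interval -0.98 to 0.51), 0.10 (-0.86 to 1.06) and 0.15 (-0.79 to 1.10), so that changes of up to about 1 on the log2 scale lie inside them. In CPB against control and in linrodostat against CPB 0% of all genes were called (932 and 1641 of 17869 at an unadjusted p under 0.05), and 0.213% in linrodostat against control. The ileum of CPB animal 19, low in FABP2, FABP6 and SI but not in VIL1 (436 CPM), had the highest GUCA2B (136 CPM) and GUCY2C (121 CPM) of the CPB arm, and without it the effects were -0.45 ± 0.36, -0.46 ± 0.40 and -0.35 ± 0.40. Across all 19 ilea the 3 genes went together. Pearson r was 0.903 for GUCA2A with GUCA2B, 0.849 for GUCA2A with GUCY2C and 0.903 for GUCA2B with GUCY2C (Spearman 0.828, 0.728 and 0.805). Each Pearson permutation p was 2e-05, the smallest the test could give (2.67e-05 adjusted over 4 relations), and without the 2 farthest ilea r was 0.897, 0.799 and 0.836. NPR1, NPR2, NPR3 and NPPC were not called in ileum either, and NPPA, NPPB and CORIN were too low to test.

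In lung, NPPB and NPR3 rose in CPB against control, and neither was called in linrodostat against control. NPPB was at low levels: 0.0551 to 0.841 CPM in linrodostat lungs, 0.116 to 1.05 CPM (median 0.629) in CPB lungs and 0 to 0.246 CPM in control lungs, 5 of which had 0 counts. In all there were 55, 148 and 18 counts in linrodostat, CPB and control lungs. NPPB exceeded every control in 6 of 7 CPB lungs (log2 fold change 3.36 ± 0.81, adjusted p 0.0242), and linrodostat against control gave 2.51 ± 0.89 (adjusted p 0.139). NPPA had 0 counts in every CPB and control lung, and summed ventricular muscle markers were alike, at 14.9 to 36.6, 15.1 to 35.6 and 11.2 to 30.8 CPM in linrodostat, CPB and control lungs. NPR3, the clearance receptor, was 46.6 to 91.3 CPM in linrodostat, 41.3 to 112 CPM in CPB and 12 to 63.4 CPM in control lungs. It rose in CPB against control (1.19 ± 0.30, adjusted p 0.0323), had 1.22 ± 0.34 in linrodostat against control (adjusted p 0.0649) and 0.03 (interval -0.73 to 0.79) in linrodostat against CPB. NPR1 averaged 176 ± 52.1 CPM in linrodostat, 151 ± 54.3 CPM in CPB and 101 ± 22 CPM in control lungs, with log2 fold changes of 0.80 ± 0.24 (adjusted p 0.0798) and 0.57 ± 0.21 (adjusted p 0.109) against control. NPR2 averaged 44.9 ± 6.34, 41.7 ± 4.83 and 41.1 ± 10.1 CPM. Summed endothelial markers had medians of 2840, 2050 and 2220 CPM in linrodostat, CPB and control lungs, and their part in the receptor values was not tested.

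GUCA2B was also called in lung (4.48 ± 1.28 in CPB against control, adjusted p 0.0484), on few libraries. It was 0.0276, 0.205, 0.85 and 1.94 CPM in linrodostat lungs, at or below 0.286 CPM in 5 CPB lungs and at 1.55 and 2.04 CPM in those of CPB animals 19 and 25, and at 0 in 7 controls and 0.168 CPM in control animal 26. GUCA2A followed it, with 1.03 and 1.53 CPM in CPB animals 19 and 25. Kidney transcripts went with these values: summed distal tubule and collecting duct markers were 59.9 and 51.9 CPM in the lungs of CPB animals 19 and 25, 31.3 and 9.12 CPM in those of linrodostat animals 20 and 18, and at most 0.429 CPM in controls. Per 100 CPM of this list there were 2.59 and 3.93 CPM of GUCA2B in CPB lungs 19 and 25 and 6.2 CPM in linrodostat lung 20. The figure was 8.44 in CPB lung 21, 2.25 in linrodostat lung 18 and 43.6 in linrodostat lung 24, where 0.85 CPM of GUCA2B stood beside 1.95 CPM of the list, so that it ran from 2.25 to 43.6 over these lungs, against 0.115 to 0.25 CPM in the kidneys of both bypass arms. With the list as a covariate the log2 fold change of GUCA2B was 1.25 (adjusted p 0.622) and that of NPPB 3.07 (adjusted p 0.0663), while NPR1 was then called in CPB against control (0.81, adjusted p 0.0225) and in linrodostat against control (1.24, adjusted p 0.0111). The GUCA2B call held in 4 of 15 fits without 1 animal. Without the lungs of CPB animals 19 and 25 and linrodostat animal 20, GUCA2B was too low to test, NPPB had 3.10 ± 0.88 (adjusted p 0.102) and NPR3 1.27 ± 0.33 (adjusted p 0.0813). NPR3 was called in 9 of 15 fits without 1 animal, the calls being lost without control animals 1, 10, 15 or 26 or CPB animals 2 or 25. In control animal 26, which had the only guanylin counts among control lungs, FABP2, FABP6 and SI summed to 20.6 CPM, against at most 0.145 CPM in the other lungs. Of 8 genes tested in lung 3 rose in CPB against control, where 2.08% of all genes rose and 2.62% fell, but NPPB and GUCA2B entered the test through the arms in which they were high. None was called in linrodostat against control (2.35% of all genes) or in linrodostat against CPB (0%, 462 of 17849 at an unadjusted p under 0.05).

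Of all genes tested in lung, 4.71% were called in CPB against control. FURIN was 268 ± 15 CPM in linrodostat, 277 ± 24.8 CPM in CPB and 226 ± 20.2 CPM in control lungs and rose in CPB (0.30 ± 0.08, adjusted p 0.0321, lost in 6 alternatives), 1 of 8 processing genes. NOS3, the endothelial nitric oxide synthase, was 91.1 ± 37.4 CPM in linrodostat, 64.1 ± 20.1 CPM in CPB and 39 ± 5.18 CPM in control lungs. It rose in linrodostat against control (1.22 ± 0.22, adjusted p 0.00735) and in CPB against control (0.72 ± 0.20, adjusted p 0.0396, lost in 14 alternatives). PDE9A, a cyclic GMP phosphodiesterase, fell in CPB (-0.65 ± 0.15, adjusted p 0.022, lost in 3 alternatives). None of 8 kinase targets, 8 guanylin-regulated transport genes and 6 transcription factors of NPPA and NPPB was called.

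**Figure D4:**
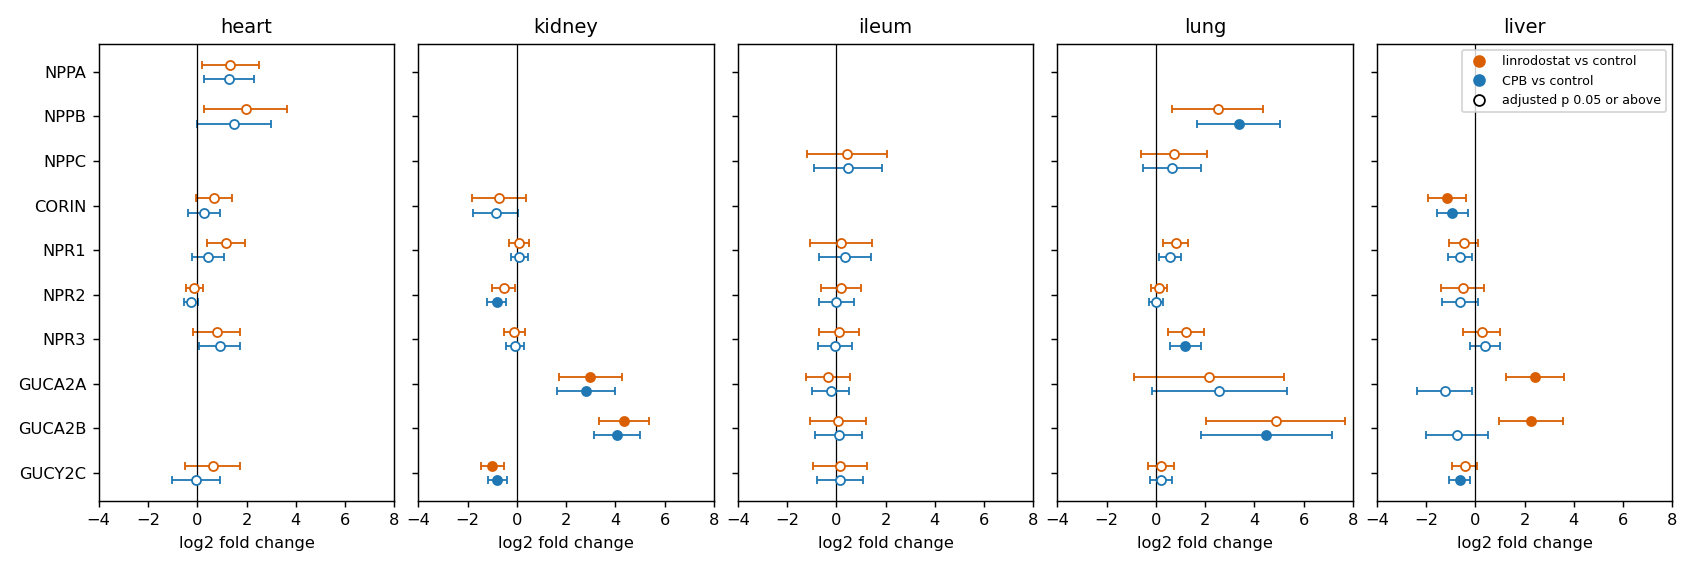
Log2 fold change with 95% interval for each tested gene in the 5 organs, linrodostat against control above CPB against control (both share the 8 controls), filled where the adjusted p was under 0.05. Filled points lie to the right for GUCA2A and GUCA2B in kidney (2.80 to 4.35) and to the left for GUCY2C in kidney, and no point is filled in heart or ileum.

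In liver, CORIN fell in both bypass arms. It was 3.99 to 11.6 CPM in linrodostat livers, 3 to 14.8 CPM (median 7.65) in CPB livers and 9.9 to 25.3 CPM (median 13.9) in controls. Below the lowest control lay 3 of 4 linrodostat and 5 of 7 CPB livers. The log2 fold change was -1.14 ± 0.37 in linrodostat against control (adjusted p 0.0347) and -0.94 ± 0.30 in CPB against control (adjusted p 0.0275), and -0.20 (interval -0.96 to 0.57) in linrodostat against CPB. The CPB call was lost without CPB animal 2, 21 or 25 or control animal 4 (adjusted p 0.0512 to 0.0623), and the linrodostat call in 6 of 12 fits without 1 animal: linrodostat animals 12, 20 and 24 and control animals 4, 14 and 15 (up to 0.115). GUCY2C was 1.7 to 2.09 CPM in linrodostat, 1.12 to 2.52 CPM in CPB and 1.86 to 3.68 CPM in control livers and fell in CPB (-0.64 ± 0.21, adjusted p 0.0281). That call was lost without control animals 1 or 7 or CPB animals 2, 19 or 21 (adjusted p 0.056 to 0.0616). Summed hepatocyte markers were at least 49100 CPM in all livers. NPR1 averaged 8.44, 7.64 and 11.7 CPM in linrodostat, CPB and control livers (CPB against control -0.62 ± 0.24, adjusted p 0.0601), and NPR3 33.2, 36.5 and 27.9 CPM (0.39, interval -0.24 to 1.01). Of 7 genes tested 0 rose and 2 fell in CPB against control, where 15.6% of all genes rose and 11.3% fell.

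Linrodostat livers held more guanylin mRNA than the others, together with other gut transcripts. GUCA2A was 2.96, 3.56, 3.6 and 7.18 CPM in linrodostat livers, 0.0813 to 0.726 CPM in CPB livers and 0.0707 to 1.92 CPM in control livers. All linrodostat livers lay above all others, while CPB and control livers overlapped. Of all genes, 0.759% rose and 0.013% fell in linrodostat against CPB, and 12.9% rose and 8.88% fell against control, while of the 10 genes GUCA2A and GUCA2B rose in both comparisons and CORIN fell against control. The log2 fold change of GUCA2A was 3.66 ± 0.62 in linrodostat against CPB (adjusted p 0.00903) and 2.41 ± 0.56 against control (adjusted p 0.00611). GUCA2B averaged 1.46 ± 0.786 CPM in linrodostat, 0.184 CPM in CPB and 0.305 CPM in control livers (2.99 ± 0.67 against CPB, adjusted p 0.038, and 2.25 ± 0.62 against control, adjusted p 0.0149). FABP2, FABP6 and SI summed to 48.6, 58.3, 84.7 and 183 CPM in linrodostat livers, 1.89 to 10.5 CPM in CPB livers and 1.01 to 41.6 CPM in control livers. The highest of both belonged to animal 18. The 5-gene enterocyte list as a whole overlapped between the arms. It was 615 to 2090 CPM in linrodostat, 154 to 4540 CPM in CPB and 60.1 to 2110 CPM in control livers. The list of secretory cells of the gut was 8.81 to 21.3 CPM in linrodostat, 0.203 to 2.69 CPM in CPB and 0.414 to 5.57 CPM in control livers. As a percent of the ileum mean, GUCA2A was 4.86, GUCA2B 3.23 and the gut markers 1.97 in linrodostat livers, 0.379, 0.41 and 0.122 in CPB livers, and 0.914, 0.678 and 0.318 in controls. With the gut markers as a covariate, chosen after these values were seen, GUCA2A had 1.17 and GUCA2B 0.56 in linrodostat against CPB (adjusted p 0.999 each). Against control they had 0.64 (adjusted p 0.502) and 0.58 (adjusted p 0.698). Without linrodostat animal 18, GUCA2A had 3.31 against CPB (adjusted p 0.084), GUCA2B was called against CPB in 2 of 11 fits without 1 animal, and its call against control was lost (1.83, adjusted p 0.0687).

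**Figure D5:**
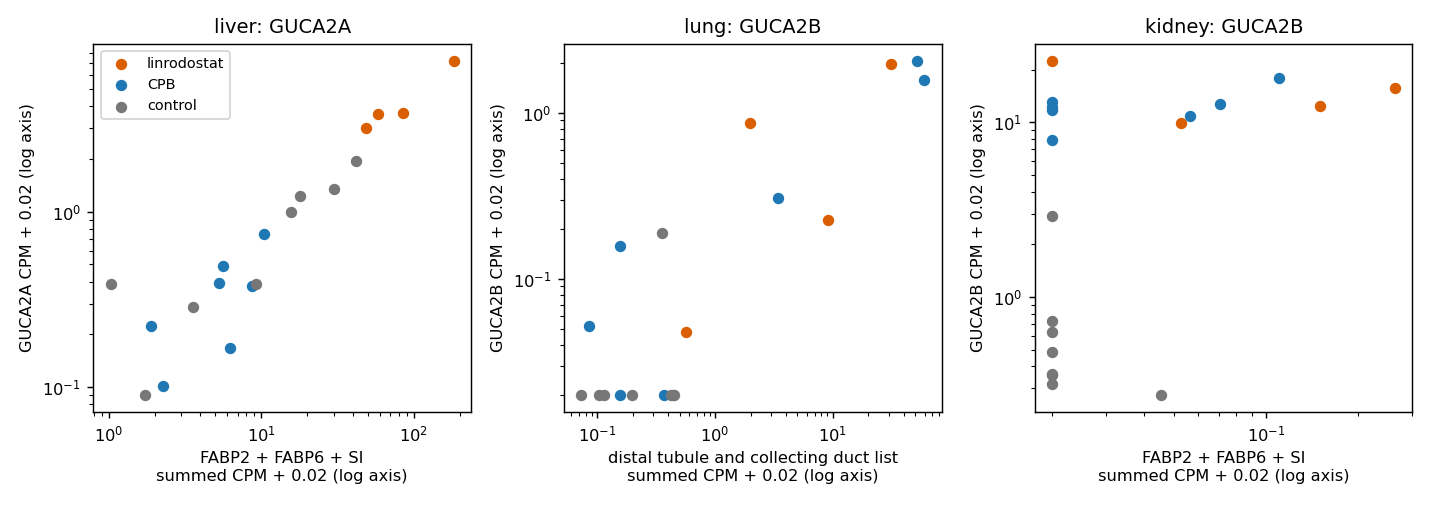
Guanylin CPM against marker CPM per library on log axes, in liver (GUCA2A against FABP2, FABP6 and SI), lung (GUCA2B against the distal tubule and collecting duct list) and kidney (GUCA2B against FABP2, FABP6 and SI), with a small constant added so that 0 can be drawn. Guanylin values climb with the marker sum in liver and in lung, and in kidney the bypass arms lie above controls at marker sums of at most 0.245 CPM.

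Other genes of these pathways were called in liver too. In linrodostat against CPB, MME, the peptide-degrading enzyme neprilysin, was 2.68 ± 2.02 CPM in linrodostat, 0.29 ± 0.19 CPM in CPB and 0.475 ± 0.457 CPM in control livers (3.19 ± 0.64, adjusted p 0.0185). SPINT1 (1.24 ± 0.27, adjusted p 0.0288), PRKG2, a cyclic GMP dependent kinase of the gut (2.88 ± 0.66, adjusted p 0.0422), and SLC26A3, a chloride exchanger of the gut (3.46 ± 0.80, adjusted p 0.0451), were also called there, but these calls were lost in 2 alternatives for MME, 9 for SPINT1 and 14 each for PRKG2 and SLC26A3. PRKG2 was at 0.33 to 1.23 CPM in linrodostat livers, at most 0.203 CPM in CPB livers and 0.168 CPM on average in controls. It was thus near the floor outside the arm in which it was high. With the gut markers as a covariate the log2 fold changes were 1.40 for MME, 0.63 for SPINT1, 2.32 for PRKG2 and -0.78 for SLC26A3 (adjusted p 0.999 each). In linrodostat against control, 12.9% of all genes rose and 8.88% fell in liver. Of the lists, 3 of 9 processing genes, 2 of 9 kinase and phosphodiesterase genes and 3 of 7 transport genes were higher, 0 lower, and 2 of 8 kinase targets lower. Among them SLC12A2, a sodium, potassium and chloride cotransporter, rose by 1.31 ± 0.26 (adjusted p 0.00235), and MME by 2.50 ± 0.60 (adjusted p 0.00692). These calls were each lost in 1 alternative (adjusted p 0.146 for SLC12A2 and 0.401 for MME). Calls on the other higher genes of these lists were lost in 1 to 5 alternatives each. In the same comparison 2 of 4 transcription factors of the guanylin genes and GUCY2C were higher, and 1 of 8 of NPPA and NPPB was lower. CDX2, among the higher factors, averaged 4.53, 1.22 and 1.41 CPM in linrodostat, CPB and control livers, and its call was lost in 11 alternatives. In CPB against control, where 15.6% of all genes rose and 11.3% fell, 2 of 8 kinase targets fell. TRPC6 was 1.57 ± 0.796 CPM in CPB livers, against 3.78 ± 1.33 CPM in control livers (-1.26 ± 0.29, adjusted p 0.00422). ITPR1, a calcium channel that the kinase pathway restrains, fell by 0.69 ± 0.18 on the log2 scale (adjusted p 0.00994, lost in 1 alternative). IDE, an enzyme that degrades natriuretic peptides, rose by 0.37 ± 0.10 (adjusted p 0.0095), and MEF2A, a muscle transcription factor, fell by 0.47 ± 0.12 (adjusted p 0.00705). The calls on IDE and MEF2A were each lost in 1 alternative (adjusted p 0.0596 and 0.0665). HNF4A was 737 ± 296 CPM in linrodostat, 635 ± 320 CPM in CPB and 300 ± 30.7 CPM in control livers and rose in both (1.30 ± 0.27, adjusted p 0.00302, and 1.08 ± 0.24, adjusted p 0.00278). The CPB call on HNF4A was lost in 1 alternative (adjusted p 0.0513).

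Over the 15 organ by arm means of log2 CPM, the genes most like each of the 10 were ranked among 14023 genes by Pearson r, a measure that organ differences dominate and that is given as a description. NPPA was most like ABRA (0.999), CSRP3 and MYOT (0.998 each), which are genes of striated muscle, and NPPB was most like MYLK3 (0.978), CAV3 (0.973) and PLN (0.972). NPR1 was most like BCL6B (0.989), ROBO4 (0.983) and NOTCH4 (0.981), and NPR2 like EDA, CEP112 (0.984 each) and NOTCH3 (0.982). CORIN was most like BCO1, PPP1R3C (0.976 each) and DYNC1I1 (0.969), while NPR3 had no gene above 0.95, with ABLIM3 at 0.941. GUCA2A was most like OLFM4 (0.988), CCL11 (0.981) and DQX1 (0.976), and GUCY2C like ENGASE (0.982), KIF5C (0.976) and ADAMDEC1 (0.974). GUCA2B, the gene with the kidney values above, had 4 genes over 0.95 where GUCA2A had 25, led by PPP2R2C (0.966), C11orf86 (0.954) and HKDC1 (0.952).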

How the data were processed

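Poly(A) RNA was sequenced as paired reads from 95 libraries. The authors deposited 1 table of expected counts, that is, estimated counts per Ensembl gene with no scaling. Per the submitters' processing notes, which give neither roles nor versions, the tools were Salmon, STAR, MultiQC, bcl2fastq, cutadapt and Trim Galore and the build was Sscrofa11.1. The program that counted, and its annotation, are not given in the sources used here. Counts were rounded. The 19 libraries of an organ were fitted together, without the other organs, by edgeR 4.0.16 under R 4.3.3 (filterByExpr, TMM, glmQLFit robust, quasi-likelihood F tests, 2-sided), and procedures were tested on simulated data. Organ differences used joint fits of 95 or 40 libraries. Alternatives were other size factors, no filter, sex, only the arms compared, DESeq2 1.42.0, limma 3.58.1 voom and leaving out each animal.

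All 10 genes were looked at in every organ, but the text does not print the values of each gene in every organ and arm. Of each of 8 pathway lists (60 of 62 genes found), up to 4 passing genes per organ and comparison were eligible by smallest p. In all, 137 of 144 list genes were found, and MEP1A, ABCC4, MYL7, PODXL, ALPI, LAMP3 and HOPX are not analysed here. Members and lists were chosen with earlier results of these data known. FABP2, FABP6 and SI, the marker covariates and the libraries left out together were chosen after their values were seen. Libraries of the same animal share its number in the labels, and their deviations from group means correlated over 11186 genes with a median of 0.156 to 0.346 in each of 10 pairs of organs. No library was a copy of another of its group. Animals of a group are separate animals per the labels.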

Additional observations from a re-analysis of the deposited data

Results flagged for a closer look

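Single libraries stood apart from the rest of their group in 8 of 108 groups looked at, where chance alone would give about 5.4. In heart, CORIN was at 14.9 CPM in CPB animal 25, with the other CPB hearts at 53.1 to 80.4 CPM, and at 30.3 CPM in linrodostat animal 24, with the others at 95.1 to 99.6 CPM. These are the hearts with the highest MYH6. GUCA2B in kidney was at 2.89 CPM in control animal 26, with the other controls at 0.255 to 0.713 CPM. The same animal had 0.529 CPM of GUCA2A and 0.168 CPM of GUCA2B in lung, where the other 7 controls had 0. In ileum, GUCA2A was at 213 CPM in control animal 14 (others 62.8 to 111 CPM) and NPPC at 0.0271 CPM in CPB animal 21 (others 0.18 to 0.441 CPM). NPR1 in liver was at 4.91 CPM in linrodostat animal 18, with the others at 9.05 to 10.1 CPM.

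The effect of CPB differed between organs for GUCA2A (adjusted p 0.00836) and GUCA2B (adjusted p 0.000234) by the F test of the difference itself. GUCA2A was not called with limma-voom, with or without a shared correlation per animal, nor without CPB animal 25, and its adjusted p reached 0.139 over 22 settings.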

How the results depend on the processing

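Counts of the 10 genes called moved by over 1.5 times under these settings. In heart 1 was called in CPB against control without the 2 MYH6-rich hearts and 1 in linrodostat against control with DESeq2, against 0. In kidney the gut marker covariate left 1 of 3 in linrodostat against control, with markers near 0 there. GUCA2A then had 2.24 (adjusted p 0.0838) and GUCY2C -0.78 (adjusted p 0.116). In liver, CPB against control gave 1 with no filter, 4 with DESeq2 and 0 with the kidney marker covariate, and both linrodostat comparisons gave 0 with the gut marker covariate. In lung, CPB against control gave 1 with no filter, 1 with only the 2 arms and 0 without 3 lungs, and linrodostat against control gave 2 with DESeq2 and 1 with voom, the gut covariate or the kidney covariate. The organ difference gave 1 with voom and 1 with voom and a shared correlation per animal (replicate block). The block changed no other call.

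Leaving out 1 animal gave 0 to 1 in heart, 4 to 5 in kidney and 1 to 3 in lung for CPB against control. For liver it gave 0 to 3 in CPB against control, 0 to 2 in linrodostat against CPB and 2 to 3 in linrodostat against control. Linrodostat against control gave 3 to 4 in kidney and 0 to 1 in lung, the organ difference 1 to 3, control organs 9 in every case, and the other comparisons 0. Calls on GUCA2A in the organ test had adjusted p of 0.000498 to 0.139 and on GUCA2B of 2.11e-05 to 0.00885 over 22 settings. SLC26A3 in liver turned to -0.78 (adjusted p 0.999) in linrodostat against CPB and -0.224 (adjusted p 0.843) against control with the gut covariate. Of 46 pathway calls 12 were kept under every alternative. Of 1862 uncalled alternative values 137 had another sign. The causes were not tested. Depth limits values under 1 CPM: NPPB had 18 counts in 8 control lungs.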
